A study of Mus musculus with 10 samples.

Results

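The 10 genes described here encode enzymes that crosslink the extracellular matrix or prepare collagen for crosslinking: the transglutaminases Tgm1 and Tgm2, the lysyl oxidases Lox, Loxl1, Loxl2, Loxl3 and Loxl4, and the lysyl hydroxylases Plod1, Plod2 and Plod3. They were chosen by name, out of 17864 genes with counts, with the difference of Tgm2 between the groups already known. All 10 also passed the filter on low counts, which left 14816 genes. The differences of these 10 genes between the groups are therefore given as a description with no p-value, and the calls of fits across all genes are listed for them without being read as support.

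Transglutaminases join a glutamine of one protein to a lysine of another, which ties fibronectin and other matrix proteins together. Lysyl oxidases are secreted copper enzymes that oxidize lysines of collagen and elastin, after which neighbouring chains bond to each other. Lysyl hydroxylases act earlier, in the endoplasmic reticulum, where they hydroxylate collagen lysines and so set which crosslinks can form later. In solid tumors these enzymes are known for stiffening the matrix, and they can come from tumor cells as well as from stromal cells.

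RNA was sequenced from whole tumors of 4T1, a mouse cell line of triple-negative mammary carcinoma that grows in BALB/c mice. Both groups were grown from 4T1 cells carrying Cas9, with a control guide RNA in 5 tumors (sgCon) and a guide RNA directed at Wwtr1, which encodes TAZ, in 5 tumors (sgTaz). By the study's methods, each tumor arose from 100000 cells placed in a mammary fat pad of a female mouse 6 to 8 weeks old. The comparison addresses what the loss of TAZ, a transcriptional co-activator held in check by the Hippo pathway, does to the RNA of the tumor.

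Host cells are part of each tumor and kept an intact Wwtr1. The guide is the only difference between the groups that the labels give, and the sources used here do not say whether the edited cells were 1 clone, nor whether BALB/c or SCID mice carried the sequenced tumors. The paper reports that sgTaz tumors of this line stayed smaller than sgCon tumors in BALB/c mice, but not in SCID mice. Sizes of the sequenced tumors are not given in these sources, so that effects of tumor size and of the guide cannot be told apart. In a whole tumor, fewer cells of a type and less RNA per cell cannot be told apart. The 5 tumors of a group were read as 5 mice. Total counts ranged from 14753922 to 19595821 in sgCon tumors and from 12185383 to 18395558 in sgTaz tumors. Levels below are in counts per 1000000 counts after TMM normalization (CPM), which compares 1 gene between tumors, and errors are SD over 5 tumors unless stated otherwise.

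The targeted gene itself was measured first. Wwtr1 stood at 192, 181, 115, 171 and 156 CPM in sgCon tumors 1 to 5 and at 86.6, 104, 110, 139 and 102 CPM in sgTaz tumors 1 to 5. All sgTaz tumors but the fourth were below every sgCon tumor. The log2 fold change of sgTaz over sgCon was -0.59 (SE 0.15), and it ran from -0.70 to -0.52 when any 1 tumor was left out (-0.57 without sgTaz tumor 5). A guide that cuts DNA need not lower the RNA count of its gene, so that the remaining reads do not measure the remaining protein.

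The label of a mammary tumor was checked against epithelial markers. Krt8, a keratin of simple epithelia, had the highest mean CPM of the list over all 10 tumors, with 928 ± 259 CPM in sgCon tumors and 711 ± 107 CPM in sgTaz tumors, and its partner Krt18 was close, with 940 ± 275 and 686 ± 175 CPM. The gene said to lead a marker list is the one with the highest mean CPM over the 10 tumors, with no account of length. The 10 epithelial markers together summed to 5171, 2762, 2157, 3190 and 3373 CPM in sgCon tumors and to 1654, 4064, 2138, 2083 and 2238 CPM in sgTaz tumors. All 10 had a fold change below 0, although the sums of the groups overlapped. None of the 10 was at 0 in any tumor.

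The sgTaz tumors differed among themselves in markers of lymph node stroma, a list led by Glycam1, a mucin-like glycoprotein of lymph node vessels. The 8 markers summed to 155, 176, 882, 43.5 and 307 CPM in sgCon tumors, to 1.72, 1.55, 6.43 and 7.61 CPM in sgTaz tumors 1 to 4 and to 408 CPM in sgTaz tumor 5. B cell markers, led by Cd79a of the B cell receptor, followed the same split, with 64.7 to 807 CPM in sgCon tumors, 7.56 to 20.6 CPM in sgTaz tumors 1 to 4 and 172 CPM in sgTaz tumor 5. Since sgTaz tumor 5 stood apart from its group, fold changes of the 10 enzymes are also given without it.

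Across all genes, the edgeR quasi-likelihood test with Benjamini-Hochberg adjustment called 0.00675% of the 14816 genes and none of the 10 enzymes. At an unadjusted p under 0.05 it called 21.8% of all genes and 5 of the 10, which were Tgm1, Tgm2, Loxl3, Plod2 and Plod3. DESeq2 called 7.36% of the genes it tested, among them Tgm1, Tgm2 and Loxl3. With sample quality weights, limma-voom called 10.4%, among them Tgm2. Without sgTaz tumor 5, edgeR called 1.15% of the genes, among them Tgm2. All 5 sgTaz tumors were above all 5 sgCon tumors in 2.44% of the genes and in 3 of the enzymes (Tgm2, Loxl3 and Plod3), and below them in 2.13% of the genes and in none of the enzymes. These counts describe genes chosen with the contrast known, and nothing is read from them about the set. The median log2 fold change was 0.09 over the 10 enzymes, 6 higher and 4 lower, beside -0.02 over all genes tested.

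**Figure D1:**
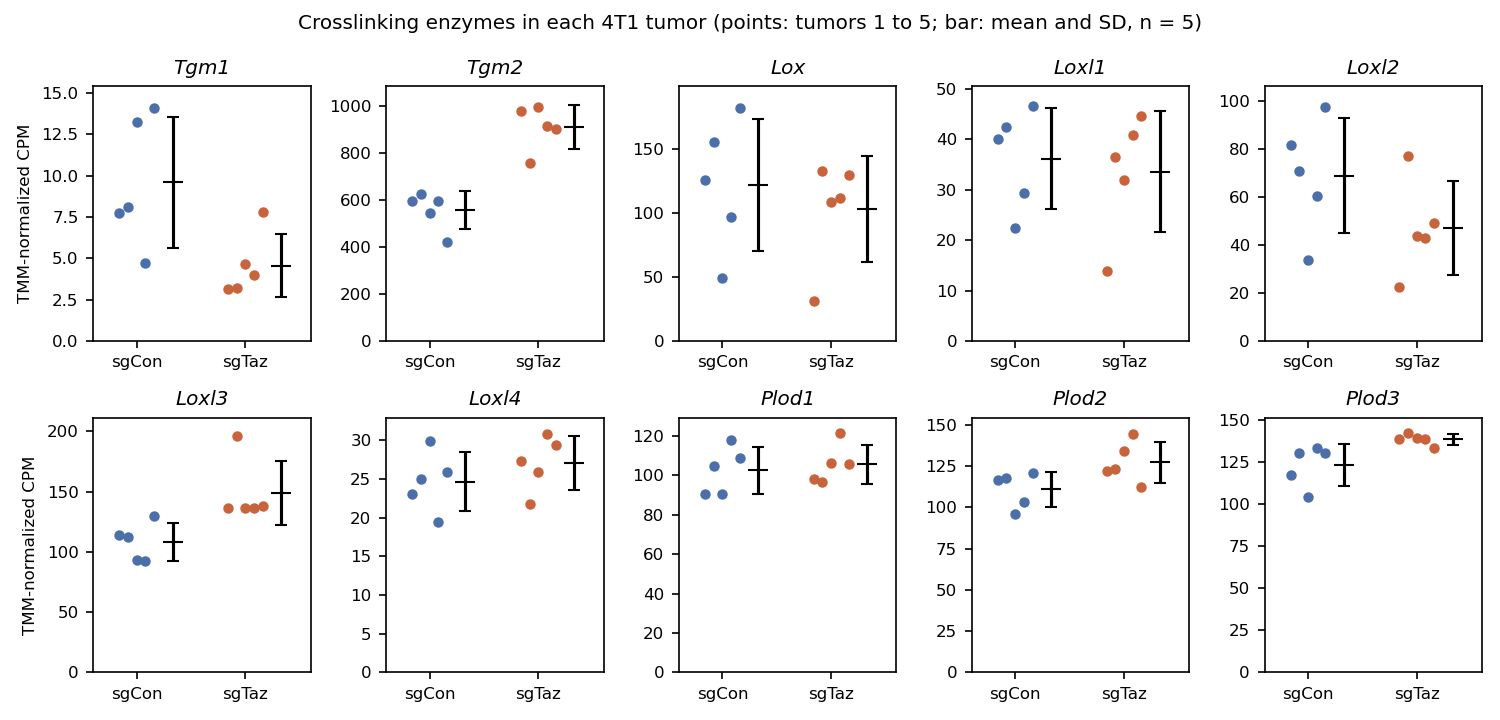
Level in CPM of the 10 crosslinking enzymes in each of 5 sgCon and 5 sgTaz tumors, each point a tumor and each bar the mean of its group. The sgTaz points of Tgm2 lie between 755 and 993 CPM, all above the sgCon points, which end at 625 CPM.

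Tgm2 encodes the widespread tissue transglutaminase, which acts inside cells and in the matrix. The gene (ENSMUSG00000037820.15) lies on the minus strand of chromosome 2, from 158116402 to 158146436 of mm10. Its level was 595, 625, 543, 595 and 421 CPM in sgCon tumors 1 to 5. In sgTaz tumors 1 to 5 it was 980, 755, 993, 914 and 904 CPM. The groups did not overlap, and the lowest sgTaz tumor, the second, was still above the highest sgCon tumor.

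The means were 556 ± 81.0 CPM in sgCon and 909 ± 94.5 CPM in sgTaz tumors, a 1.64-fold higher level with a log2 fold change of 0.71 (SE 0.12). Leaving out any 1 tumor moved it between 0.63 and 0.77, and without sgTaz tumor 5 it was 0.71. Each value rests on 6147 to 18539 counts. Parts of the Tgm2 exons are shared with 2 genes on the opposite strand, and since the strand setting of the counting is not given in the sources used here, reads of the shared bases cannot be assigned. The shared part is 370 bases with Rprd1b, whose own log2 fold change was 0.09 (SE 0.084), and 633 bases with Gm20412, which had 4.90 ± 0.942 CPM in sgCon and 7.19 ± 1.12 CPM in sgTaz tumors.

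Macrophages are among the cells that make Tgm2. All 9 macrophage markers had a fold change above 0, with a median log2 fold change of 0.46 and with none called by the edgeR quasi-likelihood test after Benjamini-Hochberg adjustment. At an unadjusted p under 0.05, 5 of the 9 were higher, beside 21.8% of all genes in either direction. DESeq2 called 3 as higher, beside 7.36%, and limma-voom 4, beside 10.4%. Their summed level was 1161, 1755, 1408, 1943 and 851 CPM in sgCon tumors and 2027, 1610, 2120, 2217 and 2169 CPM in sgTaz tumors. C1qa, a chain of complement C1q, led the list at 394 ± 146 CPM in sgCon and 492 ± 48.7 CPM in sgTaz tumors, and no marker was at 0 in any tumor. By mass cytometry, the paper reports significantly fewer macrophages in sgTaz than in sgCon tumors of this line. Its own account of the RNA also lists macrophages as enriched in sgCon tumors. The sums given here are RNA levels of chosen markers, not cell counts, and their direction is the opposite, so that they do not show more macrophages in sgTaz tumors. The part of macrophages in the difference of Tgm2 was not tested.

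Within the groups, where the difference between sgTaz and sgCon does not enter, tumors with a higher macrophage sum tended to have more Tgm2 (Pearson r = 0.804, exact permutation p = 0.0162, adjusted p = 0.154 over 95 relations). Spearman's rho was 0.600 (exact permutation p = 0.108, adjusted p = 0.540), and r fell to 0.614 without the 2 tumors with the most extreme macrophage sums. The relation did not pass the correction.

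Among the genes whose deviations from the group means were most like those of Tgm2 over the 10 tumors, out of 14050 genes ranked, were 2210408I21Rik (r = 0.970), Capn5 (r = 0.957), Ctsc (r = 0.949) and Tifab (r = 0.938). Capn5 is a calpain protease, and Ctsc is cathepsin C, a protease of lysosomes. With 10 tumors and so many genes, r passed 0.9 in 11 genes, and these values are a ranking with no test.

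Tgm1, the transglutaminase that builds the cornified envelope of skin, had the lowest level of the 10 enzymes per length of exon. The gene (ENSMUSG00000022218.16) lies on the minus strand of chromosome 14, from 55700009 to 55713926. In sgCon tumors 1 to 5 its level was 7.75, 8.11, 13.2, 4.72 and 14.1 CPM. In sgTaz tumors 1 to 5 it was 3.12, 3.23, 4.66, 3.97 and 7.79 CPM. All sgTaz tumors but the fifth were below every sgCon tumor, and the fifth fell within the range of sgCon.

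The mean was 9.58 ± 3.97 CPM in sgCon and 4.55 ± 1.91 CPM in sgTaz tumors, a log2 fold change of -1.07 (SE 0.34) from 49 to 212 counts per tumor. It ran from -1.35 to -0.89 when 1 tumor was left out, and -1.35 was the value without sgTaz tumor 5. That tumor was also the 1 sgTaz tumor with high lymph node and B cell markers. The B cell sums were 7.83, 7.56, 20.6, 12.1 and 172 CPM in sgTaz tumors 1 to 5. In sgCon tumors 1 to 5 they were 129, 195, 807, 64.7 and 375 CPM. Like Tgm1, they were lowest in sgCon tumor 4 and highest in sgCon tumors 3 and 5. This likeness was seen in the values and was not tested, nor was the part of these cells in the difference of Tgm1. Cornified skin markers were low in both groups: the 4 of 8 found in the table summed to 4.07 ± 1.24 CPM in sgCon and 3.34 ± 0.579 CPM in sgTaz tumors, of which Krt10 made 3.49 ± 0.837 and 3.26 ± 0.648 CPM. Lor, Krtdap and Dsg1a were near 0, and Krtdap was at 0 in every sgTaz tumor. The part of skin cells in the level of Tgm1 was not tested. Tgm1 thus moved the opposite way to Tgm2, and per length of exon Tgm2 held 95.3% to 99.5% of the RNA of the pair in every tumor.

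Loxl3, a lysyl oxidase that acts in cartilage, palate and muscle attachment, was higher in sgTaz tumors. The gene (ENSMUSG00000000693.10) lies on the plus strand of chromosome 6, from 83034173 to 83052562. Its level was 114, 112, 93.6, 92.5 and 130.1 CPM in sgCon tumors 1 to 5. In sgTaz tumors it was 136, 196, 137, 136 and 138 CPM. The groups did not overlap, but the highest sgCon tumor came close to the lowest sgTaz tumor, and sgTaz tumor 2 was far above the rest of its group.

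The mean was 109 ± 15.8 CPM in sgCon and 149 ± 26.6 CPM in sgTaz tumors, 1.37-fold higher, with a log2 fold change of 0.45 (SE 0.13). It was 0.33 without sgTaz tumor 2, the lowest of the values with 1 tumor left out, and 0.48 without sgTaz tumor 5. Htra2, on the opposite strand, shares 535 bases of exon with Loxl3 and had a log2 fold change of 0.01 (SE 0.12).

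Lox, Loxl1 and Loxl2 did not follow Loxl3. Lox, the founding lysyl oxidase (ENSMUSG00000024529.14, chromosome 18, 52516067 to 52529867, minus strand), had 126, 156, 49.4, 97.3 and 183 CPM in sgCon tumors and 31.4, 133, 109, 112 and 129.7 CPM in sgTaz tumors. The groups overlapped widely, and the lowest tumor of each group, sgCon tumor 3 and sgTaz tumor 1, lay far below the rest. Lox had a log2 fold change of -0.25 (SE 0.39), of -0.01 without sgTaz tumor 1 and of -0.34 without sgTaz tumor 5.

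Loxl1, which is needed for elastic fibres (ENSMUSG00000032334.10, chromosome 9, 58287738 to 58313186, minus strand), had 40.2, 42.5, 22.3, 29.3 and 46.6 CPM in sgCon and 13.9, 36.4, 32.0, 40.9 and 44.7 CPM in sgTaz tumors. The log2 fold change of Loxl1 was -0.11 (SE 0.29) and turned to 0.09 without sgTaz tumor 1 and to -0.23 without sgTaz tumor 5, so that no direction can be given. Here too sgCon tumor 3 and sgTaz tumor 1 were the lowest of their groups.

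Loxl2, which acts on the collagen of basement membranes (ENSMUSG00000034205.16, chromosome 14, 69609068 to 69695834, plus strand), had 81.7, 70.7, 33.7, 60.5 and 97.4 CPM in sgCon and 22.5, 77.2, 43.7, 43.1 and 49.0 CPM in sgTaz tumors. The means were 68.8 ± 23.9 and 47.1 ± 19.6 CPM, and the log2 fold change was -0.55 (SE 0.32), between -0.80 and -0.37 with 1 tumor left out and -0.56 without sgTaz tumor 5. The groups overlapped, with sgTaz tumor 2 above 3 of the sgCon tumors.

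Loxl4 (ENSMUSG00000025185.14, chromosome 19, 42593982 to 42612813, minus strand) was the scarcest lysyl oxidase per length of exon by its mean over all tumors, and varied little. It had 23.1, 25.0, 29.9, 19.4 and 26.0 CPM in sgCon and 27.4, 21.8, 25.9, 30.8 and 29.5 CPM in sgTaz tumors. The groups overlapped throughout, with means of 24.7 ± 3.86 and 27.1 ± 3.49 CPM and a log2 fold change of 0.13 (SE 0.13), or 0.10 without sgTaz tumor 5. It ran from 0.06 to 0.22 with 1 tumor left out. With a GC and length correction, which raised the log2 fold changes of all genes by a median of 0.061, it was 0.25.

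The lysyl hydroxylases were the steadiest of the enzymes. Plod1 (ENSMUSG00000019055.15, chromosome 4, 147909753 to 147936767, minus strand), which hydroxylates lysines of the collagen helix, had 90.7, 105, 90.8, 118 and 109 CPM in sgCon and 98.0, 96.8, 106, 122 and 106 CPM in sgTaz tumors. Its groups overlapped throughout, and its log2 fold change was 0.04 (SE 0.094), with and without sgTaz tumor 5. With 1 tumor left out it ran from -0.01 to 0.10, so that no direction can be given for Plod1. Plod2 (ENSMUSG00000032374.14, chromosome 9, 92542223 to 92608428, plus strand), which hydroxylates lysines of the collagen telopeptides, had 117, 118, 96.0, 103 and 121 CPM in sgCon and 122, 123, 134, 145 and 112 CPM in sgTaz tumors. All sgTaz tumors but the fifth were above every sgCon tumor, and the log2 fold change was 0.20 (SE 0.089), or 0.24 without sgTaz tumor 5.

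Plod3 (ENSMUSG00000004846.10, chromosome 5, 136987019 to 136996648, plus strand), which also adds glucose to collagen, had 117, 131, 104, 133.55 and 130 CPM in sgCon tumors and 139, 143, 140, 139 and 133.59 CPM in sgTaz tumors. The groups were separate only by the margin between sgCon tumor 4 and sgTaz tumor 5. The log2 fold change was 0.17 (SE 0.075), or 0.18 without sgTaz tumor 5, smaller than that of Loxl3 or Tgm2. It was 0.28 with a replicate block and a GC and length correction together. That setting raised the log2 fold changes of all genes by a median of 0.064. Parts of the exons of Plod2 and Plod3 are shared with genes on the opposite strand, 346 bases with Gm38391 and 529 bases with Znhit1.

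Levels of the 10 enzymes were compared with each other only per kilobase of merged exon (RPKM, mean over all 10 tumors). Tgm2 was the most abundant at 159 RPKM, 5.49 times the next gene and above it in 10 of 10 tumors. Plod3 (29.0 RPKM), Loxl3 (27.9 RPKM), Lox (23.6 RPKM) and Plod2 (22.1 RPKM) followed. The order among these 4 was not firm, since Plod3 was above Loxl3 in 8 tumors, Loxl3 above Lox in 6 and Lox above Plod2 in 6. It also depended on the group: the mean of Loxl3 was 23.6 RPKM in sgCon, below Plod3 (27.3) and Lox (25.6), and 32.3 RPKM in sgTaz tumors, above Plod3 (30.7) and Lox (21.6), although Plod3 was still above Loxl3 in 3 of the 5 sgTaz tumors.

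Plod1 (15.4 RPKM) was below Plod2 in every tumor. Loxl2 (10.7 RPKM) and Loxl1 (10.6 RPKM) could not be ordered, with Loxl2 above Loxl1 in 5 of 10 tumors, 4 of 5 in sgCon and 1 of 5 in sgTaz. Loxl4 (6.15 RPKM) and Tgm1 (2.23 RPKM) came last by mean. In sgCon tumor 3 and sgTaz tumor 1, Loxl4 was above both Loxl1 and Loxl2. With the length of the longest transcript in place of merged exons, 6 of the 10 kept their rank, and Plod2, Loxl3, Plod1 and Lox changed places.

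**Figure D2:**
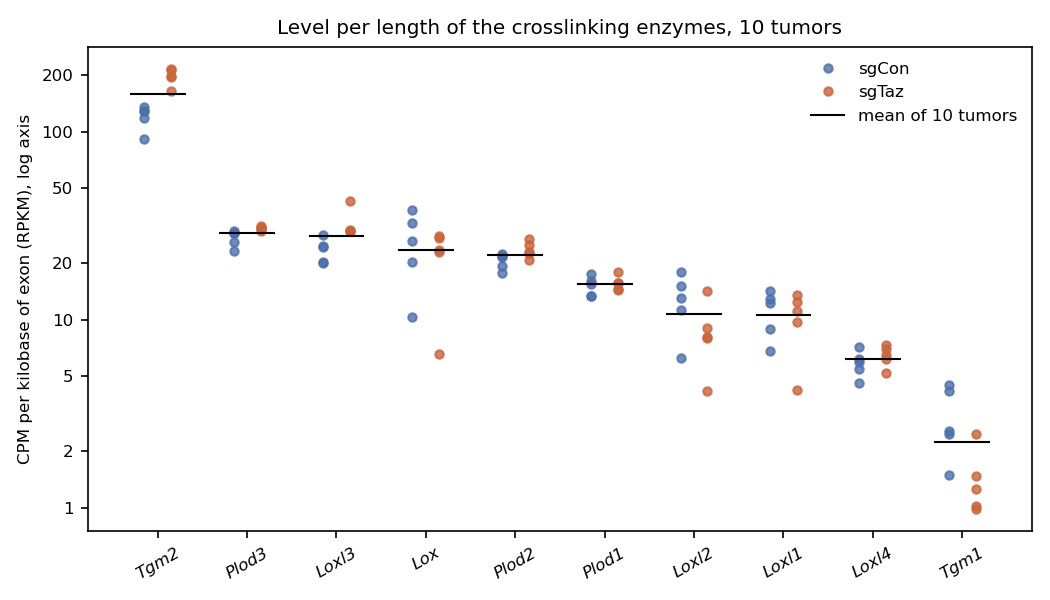
Level per length of exon (RPKM, log axis) of the 10 enzymes, ordered by their mean over all tumors, each point a tumor of sgCon or sgTaz. Tgm2 lies above every other enzyme in all 10 tumors, and Lox has the widest spread, 5.82-fold from its lowest to its highest tumor.

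The enzymes also differed in how much they varied between tumors of 1 group. The within-group SD of log2 CPM was 0.81 for Lox, 0.61 for Loxl2, 0.58 for Tgm1 and 0.57 for Loxl1, and between 0.11 (Plod3) and 0.22 (Loxl3) for the other 6. Lox spanned 5.82-fold over the 10 tumors and Plod1 1.34-fold. The SE of the fold change was accordingly larger for the variable genes than for the lysyl hydroxylases.

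Lox varied together with Loxl1 and with Loxl2 within the groups. After group means were removed, Lox and Loxl1 had Pearson r = 0.966 over 10 tumors (exact permutation p = 0.000972, adjusted p = 0.0462 over 95 relations) and Spearman's rho = 0.879 (exact permutation p = 0.00299, adjusted p = 0.142). Lox and Loxl2 had r = 0.923 (exact permutation p = 0.000833, adjusted p = 0.0462) and rho = 0.855 (exact permutation p = 0.0066, adjusted p = 0.209). Without sgCon tumor 3 and sgTaz tumor 1, r was 0.814 and 0.673. These were the 2 of 95 relations whose r passed the adjusted threshold, neither passed it by rho, and the 45 pairs of enzymes were added after the values had been seen. Loxl1 and Loxl2 did not pass (r = 0.844, exact permutation p = 0.00771, adjusted p = 0.151), with rho = 0.685 and r = 0.371 without those tumors. Loxl2 and Loxl3 did not pass either by r (r = 0.779, exact permutation p = 0.0160, adjusted p = 0.154) or by rho (rho = 0.903, exact permutation p = 0.00208, adjusted p = 0.142). Without the same tumors their r was higher, at 0.973.

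**Figure D3:**
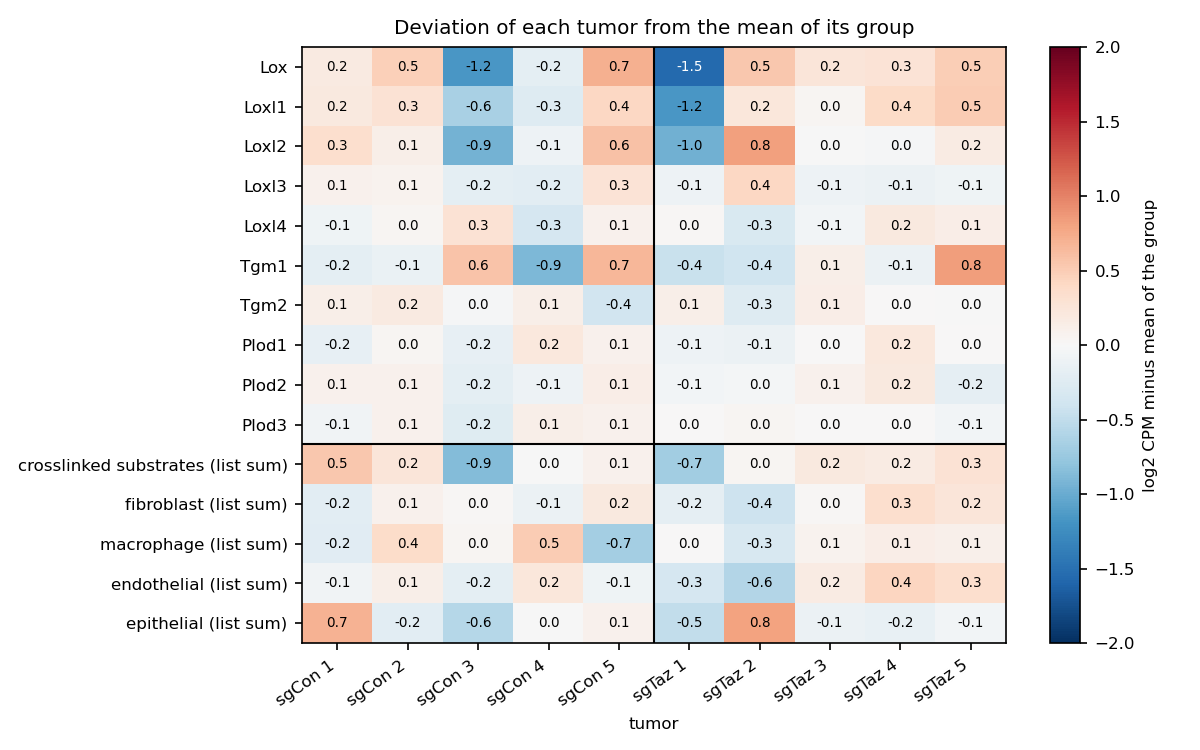
Deviation of each enzyme from the mean of its group in log2 CPM, with tumors in columns and genes in rows. Lox, Loxl1 and Loxl2 are all lowest in sgCon tumor 3 and sgTaz tumor 1, while the lysyl hydroxylases stay near 0.

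The same tumors were low in Col1a1, a chain of type I collagen and a gene chosen after its values were seen. It had 490 CPM in sgCon tumor 3 and 469 CPM in sgTaz tumor 1, below the 949 to 1636 CPM of the other 8 tumors. Col11a2 of type XI collagen had its highest level of all tumors, 13.7 CPM, in sgCon tumor 3 and its lowest, 5.16 CPM, in sgTaz tumor 1. The substrates of the crosslinking enzymes, a list of collagens, elastin and fibronectin, were summed in CPM. Fibronectin (Fn1) made the largest part, with means of 5234 CPM of 9378 CPM in sgCon and 6353 CPM of 10358 CPM in sgTaz tumors. This sum, which is therefore mostly Fn1, had r = 0.867 with Lox (exact permutation p = 0.0204, adjusted p = 0.176). Spearman's rho was 0.430, and r was 0.032 without those 2 tumors, so that the relation rests on them. The summed epithelial markers had r = 0.827 with Loxl2 (exact permutation p = 0.0135, adjusted p = 0.154) and rho = 0.818 (exact permutation p = 0.0131, adjusted p = 0.249), which did not pass the correction, and r was 0.929 without the 2 tumors with the most extreme epithelial sums. None of the 40 relations of the 10 enzymes with fibroblast, macrophage, endothelial and epithelial sums passed it, and 6 had an unadjusted p under 0.05. The smallest were those of Plod1 with the endothelial sum (r = 0.709, exact permutation p = 0.00785, adjusted p = 0.151, rho = 0.612) and of Loxl3 with the macrophage sum, which was negative (r = -0.735, exact permutation p = 0.00812, adjusted p = 0.151, rho = -0.661).

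The other genes of the pathway came from 5 lists with 48 genes, of which 41 were in the table and 38 were tested. The edgeR quasi-likelihood test with Benjamini-Hochberg adjustment called 0 of the 38. At an unadjusted p under 0.05, 4 were higher and 2 lower in sgTaz tumors, beside 21.8% of all genes. With the GC and length correction 12 of the 38 had such a p, beside 3039 of all genes. DESeq2 called 2 (Serpinh1 and Col11a2), beside 7.36% of all genes, and limma-voom 3 (the same 2 and Pcolce2), beside 10.4%. The median log2 fold change of the 38 was 0.11.

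Among the 14 genes of collagen hydroxylation and folding, 11 had a fold change above 0 and 3 below, with a median log2 fold change of 0.15. Serpinh1, the collagen chaperone HSP47, had 325, 324, 232, 333 and 314 CPM in sgCon and 412, 327, 409, 474 and 394 CPM in sgTaz tumors. All sgTaz tumors but the second were above every sgCon tumor. The log2 fold change was 0.40 (SE 0.12), with an adjusted p of 0.114 by edgeR's quasi-likelihood test with Benjamini-Hochberg adjustment. P3h3, a prolyl 3-hydroxylase, had a log2 fold change of 0.29 (SE 0.16), Fkbp10, a collagen prolyl isomerase, of -0.18 (SE 0.18), and Colgalt2, a collagen galactosyltransferase, of -0.17 (SE 0.28). With 1 tumor left out these ran from 0.18 to 0.40, from -0.31 to -0.06 and from -0.31 to -0.05. Fkbp10 moved to -0.04 with a GC and length correction and to -0.003 with a replicate block added to it.

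Of the 10 crosslinked substrates tested, 3 had a fold change above 0 and 7 below, with a median of -0.17 (-0.26 without sgTaz tumor 5). Col11a2, a chain of type XI collagen, had 12.2 ± 1.71 CPM in sgCon and 7.65 ± 1.86 CPM in sgTaz tumors. It was below the sgCon mean in 5 of 5 sgTaz tumors, with a log2 fold change of -0.67 (SE 0.18) and an adjusted p of 0.101 by edgeR's quasi-likelihood test with Benjamini-Hochberg adjustment. Col11a1 of the same collagen had a log2 fold change of -0.39 (SE 0.52), Col5a1 of type V collagen of 0.29 (SE 0.17), and Fn1, fibronectin and a substrate of Tgm2, of 0.28 (SE 0.23). With 1 tumor left out these ran from -0.63 to -0.13, from 0.17 to 0.36 and from 0.15 to 0.47.

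Procollagen processing held 6 tested genes, 4 above 0 and 2 below, with a median of 0.17. Tll1, a protease of the Bmp1 family, had a log2 fold change of 0.46 (SE 0.42) and Pcolce2, an enhancer of procollagen cleavage, of 0.44 (SE 0.17). Bmp1, the procollagen C-proteinase that also activates Lox, had -0.13 (SE 0.19), and Adamts2, the N-proteinase, had -0.11 (SE 0.26) and turned to 0.07 without sgTaz tumor 1. With 1 tumor left out Tll1 ran from 0.15 to 0.67 and Bmp1 from -0.26 to -0.04. Adjusted over all genes by edgeR's quasi-likelihood test, Pcolce2 had a p of 0.182 and was above the sgCon mean in 5 of 5 sgTaz tumors.

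Fibre assembly and copper supply held 7 tested genes, 4 above 0 and 3 below, with a median of 0.02 (0.06 without sgTaz tumor 5). Fmod, a small proteoglycan that binds collagen and Lox, had 14.7, 13.2, 20.5, 7.77 and 18.6 CPM in sgCon and 0.891, 7.94, 5.73, 4.53 and 13.1 CPM in sgTaz tumors. The groups overlapped, and 3 sgTaz tumors were below every sgCon tumor. For Fmod the log2 fold change was -1.22 (SE 0.50), or -1.64 without sgTaz tumor 5, and the adjusted p was 0.195 by edgeR's quasi-likelihood test. Atp7a, the pump that loads copper onto lysyl oxidases, had 0.48 (SE 0.25), Pxdn, the peroxidase that crosslinks type IV collagen, 0.24 (SE 0.17), and Atox1, the copper chaperone of Atp7a, -0.13 (SE 0.075). With 1 tumor left out Pxdn ran from 0.12 to 0.33. The sign of Atox1 turned to 0.56 when GC content and length were corrected for.

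Of the 8 other transglutaminases listed, 3 were in the table and 1 passed the filter. F13a1, the A chain of coagulation factor XIII and a gene of macrophages, had 140, 207, 106, 208 and 81.8 CPM in sgCon and 205, 127, 292, 370 and 292 CPM in sgTaz tumors. The groups overlapped, and 4 of 5 sgTaz tumors were above the sgCon mean. The log2 fold change was 0.79 (SE 0.31), and the adjusted p was 0.180 by edgeR's quasi-likelihood test with Benjamini-Hochberg adjustment.

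**Figure D4:**
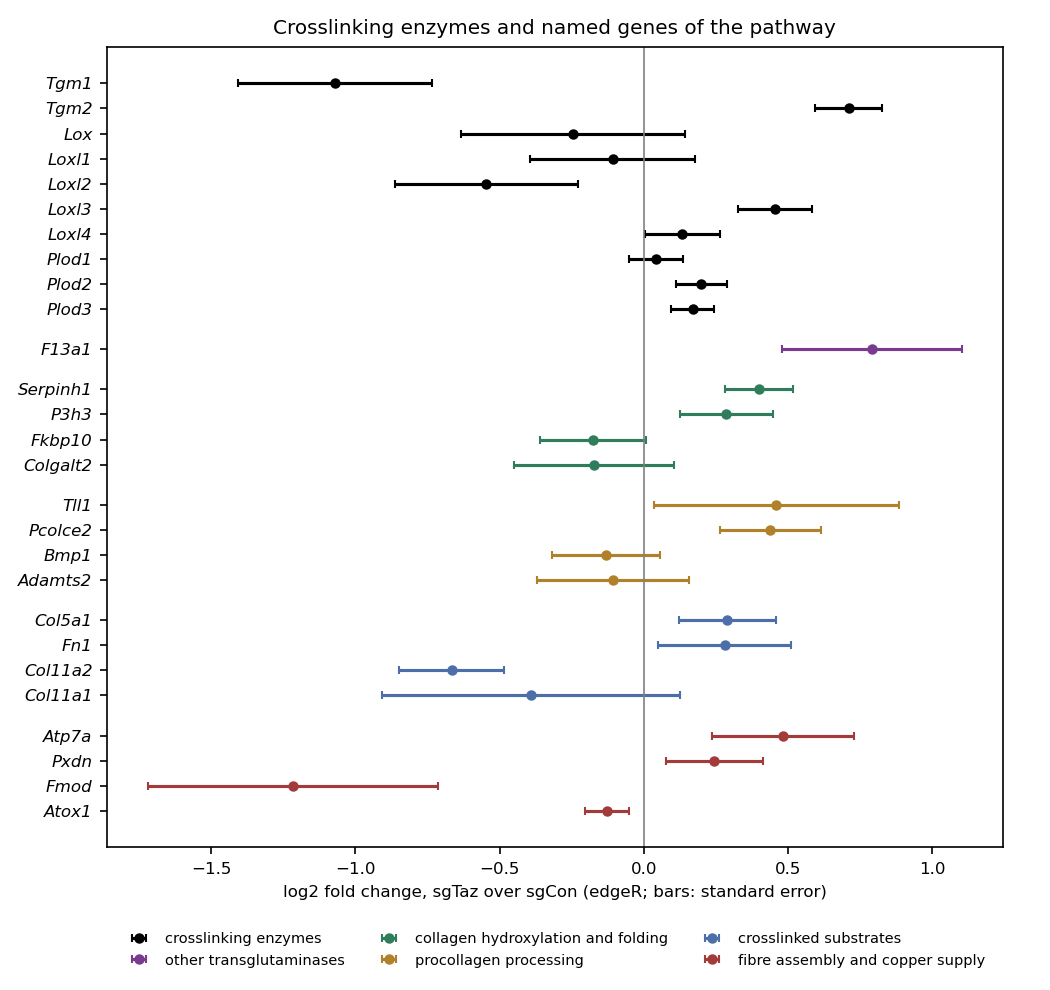
log2 fold change of sgTaz over sgCon with its standard error for the 10 crosslinking enzymes and the named genes of the pathway, colored by list. Tgm2 lies at 0.71 and Tgm1 at -1.07, while the bars of Lox and Loxl1 cross 0.

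The other cell types the tumors could hold were read from marker lists. Of 79 markers in 10 lists, 75 were in the table, 64 were tested and 0 were called by the edgeR quasi-likelihood test with Benjamini-Hochberg adjustment. At an unadjusted p under 0.05, 7 were higher and 16 lower in sgTaz tumors, beside 21.8% of all genes. DESeq2 called 6, beside 7.36% of all genes, limma-voom 23, beside 10.4%, and edgeR 11 without sgTaz tumor 5, beside 1.15%. Summed fibroblast markers, led by Thy1, were 513 ± 56.4 CPM in sgCon and 571 ± 117 CPM in sgTaz tumors, and endothelial markers, led by Pecam1, 453 ± 53.0 and 511 ± 146 CPM. The fibroblast markers did not move as one: Thy1 was below the sgCon mean in 5 of 5 sgTaz tumors (log2 fold change -0.61, SE 0.19), and Pdgfra, named after its values were seen, was above it in 5 of 5 (log2 fold change 1.09, SE 0.26). Their adjusted p was 0.124 and 0.0960 by edgeR's quasi-likelihood test with Benjamini-Hochberg adjustment. Thy1 was highest in sgCon tumors 3 and 5 (243 and 215 CPM) and in sgTaz tumor 5 (155 CPM). Those tumors also had the highest lymph node and B cell sums of their groups, and which cells the Thy1 RNA came from was not tested. Neutrophil markers, led by S100a9, summed to 358 ± 209 and 158 ± 74.8 CPM, adipocyte markers, led by Fabp4, to 95.8 ± 25.5 and 165 ± 109 CPM, and skeletal muscle markers, led by Tnni2, to 39.9 ± 13.1 and 27.7 ± 23.7 CPM. The adipocyte sums of sgTaz tumors 1 and 2, 53.3 and 40.8 CPM, were below every sgCon tumor, while those of sgTaz tumors 3 to 5, between 220 and 257 CPM, were above every sgCon tumor. The muscle sum of sgTaz tumor 2 was 69.9 CPM, against at most 20.05 CPM in the rest of its group, and came mostly from Tnni2 (38.2 CPM) and Tnnt3 (30.3 CPM), with Myh4 and Tnnc2 at 0 there. The part of these cells in the levels of the 10 enzymes was not tested.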

How the data were processed

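RNA of whole tumors was sequenced by the authors on a HiSeq instrument. The submitters' processing notes name CASAVA, STAR, Subread and the build GRCm38 (mm10), and the methods state 2-pass STAR and featureCounts. Tool versions and the strand setting are not given in the sources used here. The deposited values are raw counts per gene, whole numbers that the authors did not normalize, with a column per tumor. Another 5 columns of that file belong to no sample described here and were left out. Columns were matched to groups by the sample labels.

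Identifiers were matched to GENCODE M21 (17860 of 17864 found), which also gave exon lengths. edgeR 4.0.16 in R 4.3.3 was run on all genes of the 10 tumors (filterByExpr by group, TMM, glmQLFit and glmQLFTest, two-sided, adjusted p below 0.05). The SE of a log2 fold change was its size divided by the square root of the F statistic. DESeq2 1.42.0, limma 3.58.1 (voom with sample weights), other scalings and filters, a replicate block, a GC and length correction and leaving out each tumor were alternatives. The fits were tested on simulated data. Relations between tumors used deviations from group means, with exact permutation of all 14400 orders within groups, two-sided, adjusted over 95 relations. Those with the substrates and between the enzymes were added after the data had been seen.

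The members and lists were chosen with earlier results of these data known. Genes named are the members, Wwtr1, from each pathway list those called and up to 2 per direction with the largest fold change and a mean of at least 1 CPM, the most abundant gene of each marker list and the 5 genes most like Tgm2, of which 1 is not reported here. Krt18, Tnnt3, Pdgfra, Col1a1, opposite-strand partners and markers given at or near 0 fall outside this rule and were named after their values were seen. No 2 tumors of a group agreed within sampling noise (chi-square per degree of freedom at least 6.49 over 20 pairs). A count of 0 allows a share of up to 1.53e-05% to 2.46e-05% of a library (3 counts), which covers counting error only. The labels do not state that the tumors of a group came from separate mice, so that p-values measure the spread between these tumors.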

Additional observations from a re-analysis of the deposited data

Results flagged for a closer look

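In groups of 5 tumors, a tumor was singled out where its gap to the nearest other tumor, divided by the range of the group, was above 0.71. Of 76 groups of values tested, 10 held such a tumor, while chance alone gives 1 in 20, or 3.8. Values are in log2 CPM. In sgTaz tumor 1, Lox was 4.98, below the 6.77 to 7.06 of the rest of its group, and Loxl1 was 3.81, with the others between 5.01 and 5.49. In the same tumor Fn1 was 12.1, with the others between 12.6 and 12.8. In sgTaz tumor 2, Loxl3 was 7.62, above the 7.09 to 7.11 of the others, and Bmp1 was 9.45, above the 8.86 to 8.93 of the others. The summed macrophage markers of that tumor were 10.7, below the others at 10.98 to 11.11, and its summed skeletal muscle markers were 6.13, above the others at 3.81 to 4.33, a sum that came mostly from Tnni2 (38.2 CPM) and Tnnt3 (30.3 CPM), with Myh4 and Tnnc2 at 0. In sgTaz tumor 5, the summed lymph node stroma markers were 8.67, above the 0.63 to 2.93 of the others. In sgCon tumor 3, Pxdn was 6.40, with the other sgCon tumors between 7.13 and 7.21, and Serpinh1 was 7.86, with the others between 8.30 and 8.38.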

How the results depend on the processing

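The number of genes called after adjustment varied widely between settings. The limma-voom setting changed both the tool and the weighting of samples. edgeR called 1 of 14816 genes, DESeq2 1069, limma-voom 1546, edgeR with at least 10 counts in every tumor 5, and edgeR with no filter or with a GC and length correction 0 (3610 and 3039 at an unadjusted p under 0.05). Leaving out 1 tumor gave 0 to 172 genes, with 172 without sgTaz tumor 5, 75 without sgTaz tumor 2 and 5 without sgCon tumor 3 or without sgCon tumor 4. The 0 enzymes called became 3 with DESeq2 and 1 with limma-voom, and 0 to 1 when 1 tumor was left out, with Tgm2 called without sgTaz tumor 2 and without sgTaz tumor 5. The 0 pathway genes called became 2 with DESeq2 and 3 with limma-voom and stayed 0 to 0 when 1 tumor was left out. The 0 markers became 6 and 23, and 0 to 11 with 1 tumor left out, 11 without sgTaz tumor 5 and 1 without sgTaz tumor 2. The causes were not tested. Tumors with the same replicate number did not deviate together (r from -0.243 to 0.221 over genes, with 1 of 5 sgCon and 0 of 5 sgTaz tumors closest to its own number). So few tumors cannot exclude a weak effect shared by tumors of the same number, and the labels give no pairing. With the replicate block 0 genes were called (2462 at an unadjusted p under 0.05), and 0 with the block and the GC correction (2616). Over 190 alternatives the fold changes of the enzymes changed sign in 3, Loxl1 to 0.09 without sgTaz tumor 1 and to 0.02 with the GC correction and Plod1 to -0.01 without sgTaz tumor 4. In 1, Plod3 with the block and the GC correction, the value moved beyond the spread, from 0.17 to 0.28. That setting raised the log2 fold changes of all genes by a median of 0.064, and the GC correction alone by 0.061. Part of such moves is therefore shared by all genes. With the longest transcript, 6 of 10 ranks of level were kept. Among named pathway genes 3 of 322 alternatives changed the sign, Adamts2 to 0.07 without sgTaz tumor 1 and Atox1 to 0.56 with the GC correction, alone or with the block.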

Other observations

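Within single tumors, the balance of the lysyl oxidases per length of exon was also read. The ratio of Loxl3 to Lox was 0.942, 0.749, 1.97, 0.987 and 0.740 in sgCon tumors 1 to 5 and 4.51, 1.53, 1.30, 1.27 and 1.10 in sgTaz tumors 1 to 5. Only sgCon tumor 3, which was low in Lox, had a ratio above 1 in its group, while all sgTaz tumors did, and the groups overlapped. The ratio of Loxl3 to Loxl2 was 1.64, 1.87, 3.26, 1.79 and 1.57 in sgCon and 7.10, 2.99, 3.67, 3.71 and 3.30 in sgTaz tumors, which overlapped through sgCon tumor 3 and sgTaz tumor 2. These ratios were chosen after the values had been seen and were not tested.

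RefSeq promoter windows on GRCm38.p6 around annotated starts were at hand for 4 of the 10 enzymes, Tgm1, Loxl4, Plod1 and Plod3. The letters GGAATG, the core to which the TEAD partners of TAZ bind, were searched on both strands and were found in 0 of their 5 windows, beside 14.7% of all 32851 windows. Nothing follows from this about binding outside these windows.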
